A study of Mus musculus with 8 samples.

Results

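The genes described here are the MHC class II genes *H2-Aa*, *H2-Ab1*, *H2-Eb1*, *H2-Ea-ps*, *H2-DMa* and *H2-DMb1*, together with *Cd74* and *Ciita*. They were picked by gene symbol, and they are 8 of the 18605 genes in the deposited table and 8 of the 13470 genes that had enough counts to be tested. All were measured by RNA-seq in the C3H10T1/2 line, mesenchymal stem cells of mouse origin derived from the C3H strain. There were 4 groups of 2 libraries. The paper's results call the NC cells a non-target control, while its RNA-seq method calls them normal cells. KD-Nap1l2 cells carried an shRNA construct against *Nap1l2*, delivered by lentivirus. Both were harvested before osteogenic induction. NC-7day and KD-Nap1l2-7day were the same kinds of cells after 7 days of osteogenic induction. All 8 libraries thus came from 1 cell line. Whether the NC cells had also received a viral construct is not clear from these descriptions. Which of the shRNA sequences was used is not given in the sources used here. The labels call the paired libraries replicates without saying that they were separate cultures, so the p-values measure only the spread between these libraries, which may be technical.

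The set was chosen with its day-0 values in view. All differences that involve the NC or KD-Nap1l2 libraries are therefore given for these genes as a description, with no p-value, and the comparison of KD-Nap1l2-7day with NC-7day is the one that was tested for them. *H2-Ab1*, *H2-Eb1* and *H2-Ea-ps* passed the filter on low counts only through their NC libraries.

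MHC class II molecules are pairs of an α and a β chain that carry peptides from endosomes to the cell surface, where CD4+ T cells read them. In the mouse, *H2-Aa* and *H2-Ab1* encode the chains of the I-A molecule, and *H2-Ea* and *H2-Eb1* those of I-E. *Cd74* encodes the invariant chain, which fills the groove of a new molecule until *H2-DMa* and *H2-DMb1*, the chains of the H2-DM exchange factor, help a peptide to take its place. *Ciita* encodes the transactivator of the whole family. It does not bind DNA itself but docks on the RFX, CREB and NF-Y proteins that sit on a shared promoter module, and in cells that are not professional antigen-presenting cells it is best known as a gene switched on by interferon γ.

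The promoter module is shown here because the class II genes are known to share it. The letters searched were GNAAC, the core of the X box, followed by GATTGG, the reverse complement of the CCAAT motif in the Y box, with 28 to 35 bases from the start of one to the start of the other, on either strand. This spacing was set after these promoters had been read. Of the 8 genes, 4 have a promoter in the RefSeq table used here (GRCm38.p6, strain C57BL/6J), and 3 of these 4 hold the module. For *H2-Aa* and *H2-Eb1*, the 120 bases before the annotated start are printed 5′ to 3′ on the gene's own strand, with GNAAC and GATTGG in capitals. The windows are chr17:34287824-34287943 on the minus strand for *H2-Aa* and chr17:34305747-34305866 on the plus strand for *H2-Eb1*. For *H2-DMb1* the RefSeq start lies inside the gene as GENCODE annotates it, so its sequence is not printed.

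H2-Aa: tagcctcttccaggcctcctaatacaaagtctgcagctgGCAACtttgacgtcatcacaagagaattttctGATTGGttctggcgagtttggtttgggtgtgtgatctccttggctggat
H2-Eb1: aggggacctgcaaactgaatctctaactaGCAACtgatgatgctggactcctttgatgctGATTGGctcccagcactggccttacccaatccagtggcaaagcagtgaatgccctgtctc

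The pair lies 32 bases apart in *H2-Aa*, 31 in *H2-Eb1* and 32 in the RefSeq window of *H2-DMb1*. *H2-DMa* has 2 promoter windows in the table, and neither holds the module. Among class II genes as a whole, including *H2-Oa*, *H2-Ob*, *H2-Eb2* and *H2-DMb2*, the module was found in 6 of 8 genes with a promoter in the table. It was found in 0 of 48 other listed genes of antigen presentation and interferon signalling, and in 167 of all 32851 promoter windows of the same 300 bases, or 0.508%. Alone, GNAAC occurred in 84.8% and GATTGG in 16.1% of all windows. A match is a run of letters and does not show that a protein was bound. The sequence is that of C57BL/6J, which carries another H2 haplotype than C3H. For the same reason *H2-Ea* is annotated in the reference as a polymorphic pseudogene and appears in the table as *H2-Ea-ps*, whereas C3H mice are known to have a functional copy. Reads of C3H alleles may have aligned less well to this reference, which was not tested, and it is the same for all 8 libraries.

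The 8 genes had their highest level in both NC libraries. In each of them, both NC libraries lay above all 6 others. Of all tested genes, 8.33% had such a pattern, and since the set was chosen on part of this contrast, nothing more is read from the count. Levels are given below as CPM, a count scaled to TMM-adjusted library size, when libraries are compared, and as FPKM, which also divides by length, when genes are compared. The plot of CPM by library shows the 4 groups side by side.

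**Figure D1:**
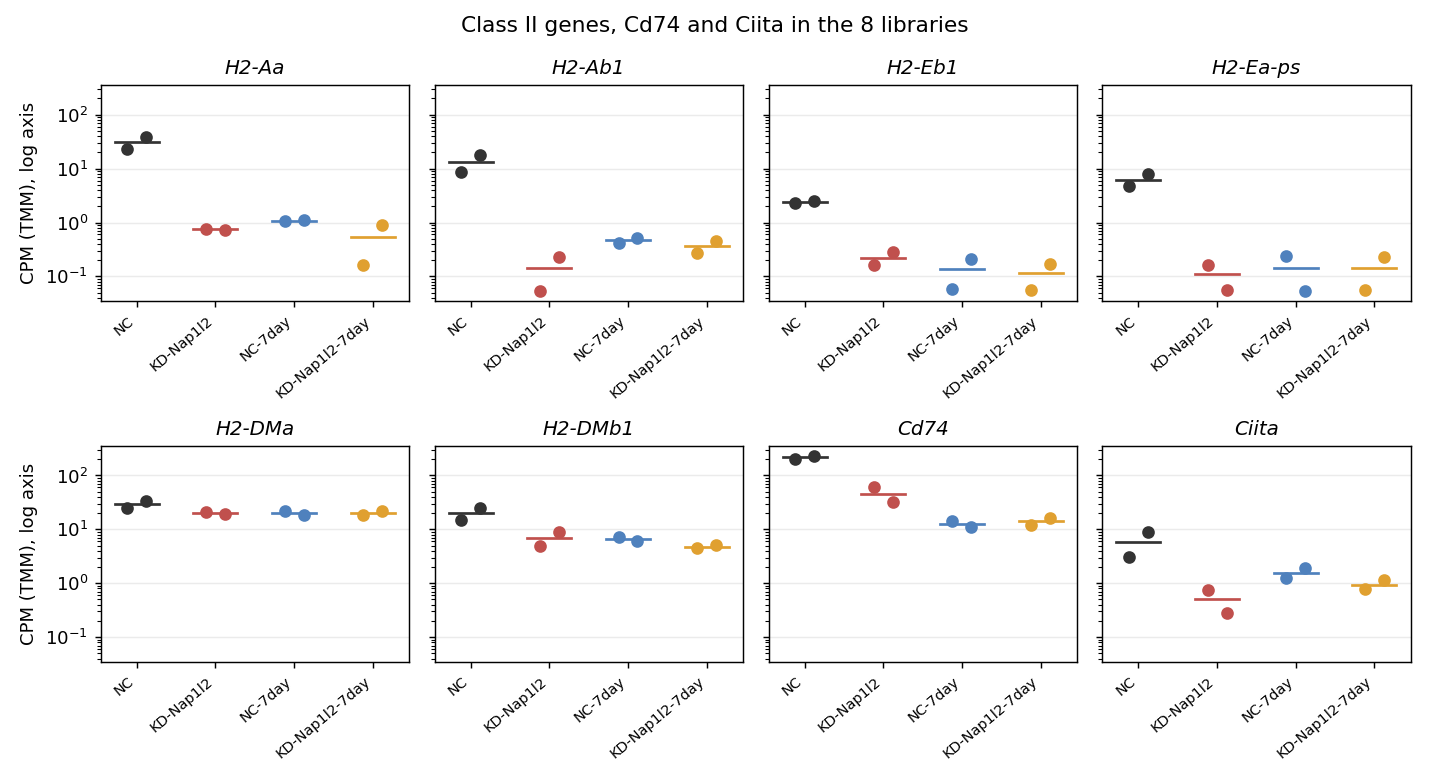
CPM of each of the 8 genes on a log axis in the 4 groups, with 1 point for each library and a line at the mean of 2 libraries. The NC points lie above all others in every panel, by a wide gap for H2-Aa, H2-Ab1, H2-Eb1 and H2-Ea-ps and by a narrow one for H2-DMa.

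*Ciita* (chr16:10480059-10528418, plus strand) was a low-abundance transcript throughout. It was at 3.08 and 8.81 CPM in NC, 0.751 and 0.285 in KD-Nap1l2, 1.23 and 1.89 in NC-7day, and 0.769 and 1.13 in KD-Nap1l2-7day. The NC libraries themselves differed 2.86-fold, the widest gap between NC libraries among the 8 genes. Summed over libraries, the NC level was 11.5 times that of KD-Nap1l2 (95% exact counting interval 7.17 to 19.4) and 3.81 times that of NC-7day (2.84 to 5.19). The order from high to low was NC, NC-7day, KD-Nap1l2-7day and KD-Nap1l2, and the ranges of the last 2 groups did not overlap but came within 0.751 and 0.769 CPM of each other. The intervals given here and below cover counting error only, not the spread between libraries.

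The reads of *Ciita* were spread over 8 annotated transcripts, and the split differed between libraries of the same group. NM_001243761.2, whose start lies downstream of those of the other curated *Ciita* transcripts, took 80.3% and 52.9% of the estimated *Ciita* counts in NC-7day and 6.84% and 35.4% in NC. In KD-Nap1l2 it took 4.07% and 0%, and in both KD-Nap1l2-7day libraries 0%. The model transcript XM_011245810.2 took 86.1% in NC replicate 1 and 2.55% in NC replicate 2. With 5 to 172 counts for the whole gene in a library, divided by the authors' program between transcripts that share most exons, these shares are values of single libraries, and no promoter use was derived from them.

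Among the I-A and I-E chains, *H2-Aa* (chr17:34282744-34287823, minus strand), the α chain of I-A, had 23.0 and 38.1 CPM in NC, 0.751 and 0.741 in KD-Nap1l2, 1.06 and 1.10 in NC-7day, and 0.165 and 0.916 in KD-Nap1l2-7day. NC stood 41.2-fold above KD-Nap1l2 (28.2 to 62.8) and 28.4-fold above NC-7day (20.7 to 40.2). The KD-Nap1l2 and NC-7day libraries were each close to their group mates, whereas KD-Nap1l2-7day replicate 1, with 3 counts, had less than its partner with 16.

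*H2-Ab1* (chr17:34257689-34269419, plus strand), the β chain of I-A, was at 8.64 and 17.8 CPM in NC and at 0.0536 and 0.228 in KD-Nap1l2. It was at 0.411 and 0.525 in NC-7day and at 0.275 and 0.458 in KD-Nap1l2-7day. Only 1 and 4 counts were left in the KD-Nap1l2 libraries, so its ratio of 96.6 between NC and KD-Nap1l2 has a counting interval of 41.1 to 299. The ratio of NC to NC-7day was 28.3 (17.5 to 49.0).

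*H2-Eb1* (chr17:34305867-34316674, plus strand), the β chain of I-E, had the lowest FPKM of the chains in NC. It had 2.32 and 2.46 CPM in NC, 0.161 and 0.285 in KD-Nap1l2, 0.0587 and 0.210 in NC-7day, and 0.0549 and 0.172 in KD-Nap1l2-7day. The 6 libraries outside NC held 1 to 5 counts each. NC was 10.8-fold above KD-Nap1l2 (5.26 to 25.8) and 17.3-fold above NC-7day (7.13 to 54.4).

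*H2-Ea-ps* (chr17:34341959-34344645, minus strand) had 87 and 153 counts in NC, or 4.70 and 7.84 CPM, and 1 to 4 counts in each of the other 6 libraries. NC exceeded KD-Nap1l2 57.1-fold (22 to 211) and NC-7day 45.5-fold (19.2 to 142). The 3 groups outside NC were near the limit of 3 counts that a count of 0 allows in a library, and no order among them can be read at this depth.

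*Cd74*, on chromosome 18, had the highest mean FPKM of the 8 genes in every group, and its KD-Nap1l2 libraries stood apart from both induced groups. It was at 198 and 234 CPM in NC and at 59.9 and 32.2 in KD-Nap1l2. It was at 14.1 and 11.03 in NC-7day and at 12.1 and 16.4 in KD-Nap1l2-7day. The day-0 knockdown libraries thus lay between NC and both induced groups without overlap, 4.66-fold below NC (4.42 to 4.92), while NC-7day lay 17.4-fold below NC (15.8 to 19.2). The fitted log2 difference between KD-Nap1l2-7day and KD-Nap1l2 was -1.70 (standard error 0.300). At 7 days the ranges of control and knockdown libraries overlapped.

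The invariant chain is made in a short and a long form, and the long form carries an additional exon. In the table the long transcript, NM_001042605.1, has 9 exons and the short one, NM_010545.3, has 8. The long transcript took 24.4% ± 4.10 (SD, n = 8) of the estimated *Cd74* counts over all libraries, from 16.3% in KD-Nap1l2-7day replicate 1 to 30.7% in NC replicate 1. Its share was 30.7% and 24.2% in NC, 22.9% and 24.1% in KD-Nap1l2, 27.2% and 25.7% in NC-7day, and 16.3% and 24.0% in KD-Nap1l2-7day. Both transcripts were thus lower along with the total, and all 4 control libraries, from 24.2% to 30.7%, lay above the 4 knockdown libraries, from 16.3% to 24.1%, by a gap that was small at its narrowest and was not tested.

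The chains of H2-DM moved least. *H2-DMa* (chr17:34119541-34139101, plus strand) had 25.2 and 34.1 CPM in NC, 21.4 and 19.3 in KD-Nap1l2, 21.5 and 18.5 in NC-7day, and 18.3 and 21.8 in KD-Nap1l2-7day. The 3 lower groups overlapped one another. NC was 1.47-fold above KD-Nap1l2 (1.33 to 1.61) and 1.498-fold above NC-7day (1.36 to 1.65), while the 2 NC libraries differed 1.35-fold. The reads were divided between 3 annotated transcripts. The curated NM_010386.4 took 44% to 60% of the estimated counts in control libraries and 19% to 38% in knockdown libraries. The model transcript XM_006523684.3 took 20% to 36% and 40% to 59%. These shares were not tested, and the gene total does not speak for single transcripts.

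*H2-DMb1* (chr17:34153072-34160230, plus strand) had 14.9 and 24.9 CPM in NC, 4.93 and 8.95 in KD-Nap1l2, 7.11 and 6.18 in NC-7day, and 4.45 and 5.03 in KD-Nap1l2-7day. NC was 2.91-fold above KD-Nap1l2 (2.52 to 3.38) and 3.03-fold above NC-7day (2.62 to 3.52). Its counts were mostly not whole, and *H2-DMb2*, a close copy beside it, shares sequence with it, so the division of reads between the pair is uncertain.

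Per length, the order of the 8 genes also differed between groups. In NC, FPKM was 172 ± 23.4 (SD, n = 2) for *Cd74*, 29.1 ± 10.4 for *H2-Aa*, 15.7 ± 5.74 for *H2-DMb1*, 15.0 ± 3.70 for *H2-DMa*, 11.3 ± 5.63 for *H2-Ab1*, 8.19 ± 2.98 for *H2-Ea-ps*, 1.44 ± 0.0778 for *H2-Eb1* and 1.02 ± 0.728 for *Ciita*. The libraries of *Cd74* and *H2-Aa*, of *H2-Aa* and *H2-DMb1*, and of *H2-Ea-ps* and *H2-Eb1* did not overlap, whereas those of the other neighbours in this order did. In NC-7day, *Cd74* at 10.0 ± 1.38 and *H2-DMa* at 9.11 ± 0.156 were alike within the spread and *H2-DMb1* followed at 5.24 ± 0.354. The I-A chains were then at 1.03 ± 0.0707 (*H2-Aa*) and 0.400 ± 0.0849 (*H2-Ab1*), below H2-DM. Thus *H2-Aa* stood above both H2-DM chains in each NC library and below both in each of the other 6 libraries.

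**Figure D2:**
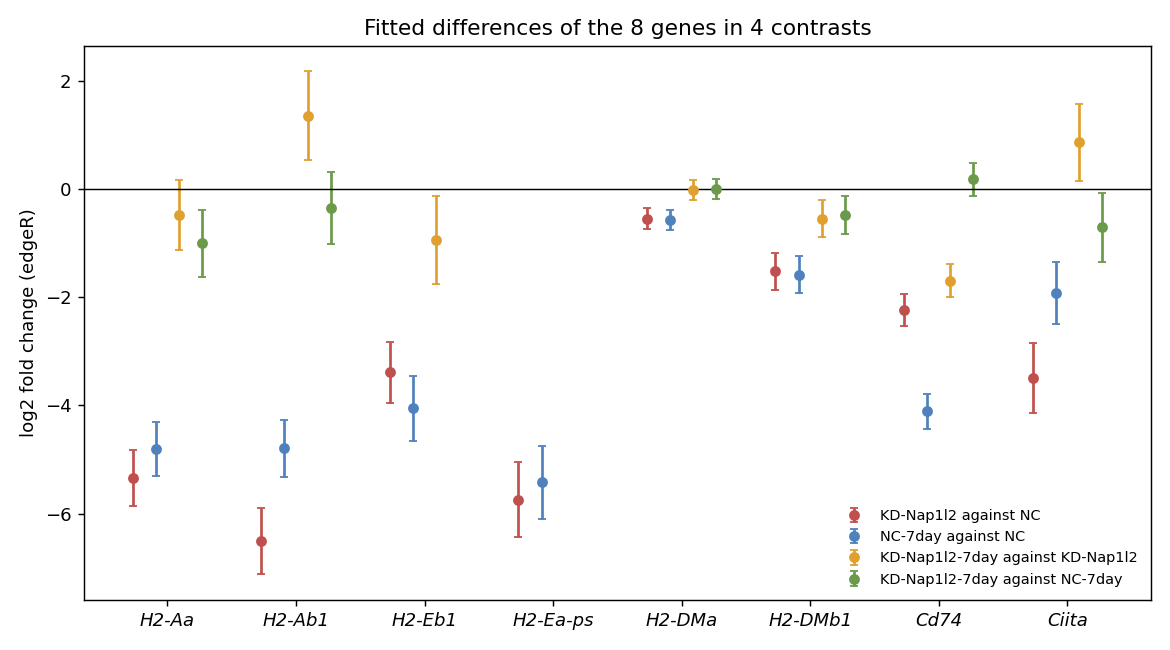
Fitted log2 fold changes from edgeR with standard errors for the 8 genes in 4 contrasts. KD-Nap1l2 and NC-7day lie below NC for every gene, with H2-DMa nearest to 0, and the 7-day contrast lies between -1.005 and 0.18. Contrasts in which both groups average at most 3 counts are left out, and the fitted values of H2-Ab1, H2-Eb1 and H2-Ea-ps against NC depend on how the fit treats very low counts.

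Whether the knockdown and control libraries still differed after induction is the question that could be tested. No gene of the set was called between KD-Nap1l2-7day and NC-7day (edgeR's quasi-likelihood test, Benjamini-Hochberg adjustment over 13470 genes, threshold 0.05). Nor was any other gene, so the background was 0%. At an unadjusted p under 0.05 there were 1057 genes, or 7.85%, and 0 of the 8, and DESeq2's Wald test called 79 genes, none of them in the set. *H2-DMa*, as the sum of its transcripts, had the tightest estimate, a log2 fold change of 0.001 with a standard error of 0.188 (adjusted p = 0.9998). *Cd74* was at 0.18 (standard error 0.304, adjusted p = 0.944) and *H2-DMb1* at -0.49 (0.348, adjusted p = 0.804). The estimates for *H2-Aa* (-1.005, standard error 0.617, adjusted p = 0.754), *Ciita* (-0.71, 0.631, adjusted p = 0.847) and *H2-Ab1* (-0.36, 0.665, adjusted p = 0.949, on 5 to 10 counts in a library) were wide. For *H2-Aa* the estimate moved to -0.24 without KD-Nap1l2-7day replicate 1 and to -2.67 without replicate 2. *H2-Eb1* and *H2-Ea-ps* had 1 to 4 counts in each of these 4 libraries, and no fold change is given for them. These 2 genes and *H2-Ab1* passed the filter through other libraries, so the count of 0 of 8 says little about them. For such low genes a difference of less than several-fold was not detectable at this depth.

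Markers of immune cells were low, and the pan-leukocyte marker and *Cd3e*, of T cells, were at or near 0. Of 16 listed markers, 12 are in the table, and their summed CPM was 13.1 to 15.0 in NC, 13.2 to 16.9 in KD-Nap1l2, 9.92 to 10.8 in NC-7day and 13.8 to 19.04 in KD-Nap1l2-7day. Most of this was *Cd68*, at 3 to 11.2 CPM, *Lyz2*, at 0.861 to 5.89, and *Zbtb46*, a dendritic cell marker, at 1.77 to 4.38. These levels are like those of *Ciita* outside NC or above them, and their part in the results was not tested. *Ptprc*, the pan-leukocyte marker CD45, had 0 to 4 counts in each library, and *Cd3e*, of T cells, was at 0 in 7 of 8. *Cd8a*, another T cell marker, was not at 0. Its mean was 0.76 CPM in NC, 0.65 in KD-Nap1l2, 0.67 in NC-7day and 0.72 in KD-Nap1l2-7day. *Csf1r*, a receptor of macrophages, was at 0.756 and 1.08 CPM in NC and at 0.275 to 0.600 in the other 6 libraries. None of the 6 markers with enough counts to be tested was called in any contrast. At an unadjusted p under 0.05 by edgeR, 2 of the 6, *Csf1r* and *Lyz2*, were lower in NC-7day than in NC, beside 24.5% of all tested genes. In KD-Nap1l2 against NC there were 0. At that threshold *Cd68* was higher in KD-Nap1l2-7day than in KD-Nap1l2 and in NC-7day, and *Zbtb46* was lower than in KD-Nap1l2. The 7 mesenchymal markers summed to 9057 to 22140 CPM, and none was at 0. In bulk RNA, fewer cells that express a gene and less RNA of it per cell cannot be told apart.

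*Nap1l2* itself, the target of the shRNA, had 3 counts in each NC library, 2 and 7 in KD-Nap1l2, 15 and 5 in NC-7day and 7 and 13 in KD-Nap1l2-7day. A lower level in the knockdown libraries was not detectable at this depth, so the groups are called by their labels. Library totals were 17420284 to 19427359 counts.

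The other genes of the pathway were read from lists of 65 genes in all, 53 of which were tested. These lists were chosen with earlier results of these data known, so their counts are a description and do not test enrichment. In the day-0 comparison of KD-Nap1l2 with NC, 0 of the 53 were called by edgeR, against 0.0817% of all tested genes. At an unadjusted p under 0.05 there were 32, each of them lower in KD-Nap1l2, against 13.7% of all tested genes. DESeq2's Wald test called 17 of the 53. The share of all tested genes that DESeq2 called in this contrast is not given here, so an excess cannot be read from the 17. The median log2 fold change over the 53 was -1.33. The edgeR count rose to 11 without NC-7day replicate 1 or 2 and to 5 without KD-Nap1l2 replicate 1.

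Transcripts of the proteins that hold Ciita on class II promoters were near level at day 0. *Rfx5*, the DNA-binding subunit of RFX, had 46.2 and 42.7 CPM in NC and 36.3 and 38.3 in KD-Nap1l2, or -0.25 as a log2 fold change (standard error 0.12, edgeR adjusted p = 0.384). *Nfyc*, a subunit of NF-Y, was at -0.39 (0.22, adjusted p = 0.491). Over the 10 tested genes of this list the median was -0.03. *Irf1*, an interferon-induced activator of *Ciita*, was the one apart from the rest. It had 179 and 212 CPM in NC and 77.0 and 78.6 in KD-Nap1l2, at -1.33 (0.21, adjusted p = 0.0775). *Irf2*, its relative, was at -0.15 (0.12, adjusted p = 0.639).

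Transcripts of a receptor chain and a kinase for interferon γ were also near level at day 0, but not all genes of their list were. *Ifngr2*, the receptor chain, was at 0.03 (standard error 0.17, edgeR adjusted p = 0.963) and *Jak1*, a kinase of the receptor, at 0.21 (0.16, adjusted p = 0.601). Of the 6 tested genes of this list, 2 were lower at an unadjusted p under 0.05 by edgeR. *Socs1*, a feedback inhibitor of the receptor, was among them, at -1.06 (0.23, adjusted p = 0.116). The median over the 6 was -0.13. *Ifng*, the gene of interferon γ, had 0 counts in 7 libraries and 1 in the last.

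At day 0 edgeR called no class I or interferon-stimulated gene, while DESeq2's Wald test called 8 and 3 of them. These DESeq2 counts also stand without a share of all tested genes. Every tested gene of both lists had a negative log2 fold change, at an unadjusted p under 0.05 in 8 of 8 and 16 of 17 by edgeR. Over all tested genes the median was 0.011. The median over the 8 class I genes was -1.54, with *B2m* at -1.31 (standard error 0.26, edgeR adjusted p = 0.104), *H2-K1* at -1.67 (0.37, adjusted p = 0.124) and *H2-D1* at -1.39 (0.30, adjusted p = 0.119). *Nlrc5*, which serves class I promoters as Ciita serves class II, was at -1.85 (0.43, adjusted p = 0.135). The median over the 17 tested interferon-stimulated genes was -2.12, with *Ifit3* at -2.34 (0.81, adjusted p = 0.264), *Isg15* at -2.08 and *Ifit1* at -1.93. Of the remaining class II genes, *H2-DMb2* was at -1.43 (0.31, adjusted p = 0.119), and *H2-Oa* and *H2-Eb2*, with 0 to 7 counts in a library, were not tested. The 7 tested genes of endosomal processing had a median of -0.28 at day 0. *Cd274*, the checkpoint ligand PD-L1, was at -2.15 (0.51, adjusted p = 0.141), while the costimulatory genes *Cd80* and *Icosl* were at 0.35 and 0.87, and the 4 tested genes of that list had a median of 0.24.

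After 7 days in control cells, 7 of the 53 tested pathway genes were called between NC-7day and NC, 6 lower and 1 higher. Of all tested genes, 8.21% were called, 3.38% lower and 4.83% higher. *Rfx5* fell, with 27.2 and 27.4 CPM in NC-7day (log2 fold change -0.70, standard error 0.12, edgeR adjusted p = 0.0122). *Irf1* fell by 1.04 on the log2 scale (adjusted p = 0.0255 from edgeR), and *Socs1*, a feedback inhibitor of the interferon γ receptor, fell by 1.20 (adjusted p = 0.0201). *Psmb8* and *Psmb9*, immunoproteasome subunits encoded between class II genes, fell by 2.03 and 1.87 (adjusted p = 0.0351 and 0.0309). *H2-DMb2* fell by 1.46 (adjusted p = 0.0290), close to the difference of -1.58 in its neighbour *H2-DMb1*. *Lgmn*, an endosomal protease, rose by 0.72 (adjusted p = 0.0434). This count of 7 depended on single libraries. Leaving out NC replicate 1 gave 0 calls and NC replicate 2 gave 1. It was 2 without NC-7day replicate 2, 11 without NC-7day replicate 1 and 3 when either KD-Nap1l2-7day library was left out. Of 14 alternatives, the call held in 12 for *Rfx5*, 11 for *Socs1*, 10 for *Irf1*, 8 for *Psmb8* and for *Psmb9*, 7 for *Lgmn* and 6 for *H2-DMb2*. *Rfx5* was the gene still called without NC replicate 2, and it lost the call without NC replicate 1 and without NC-7day replicate 1.

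In the knockdown cells, 8 of the 53 tested pathway genes were called between KD-Nap1l2-7day and KD-Nap1l2, 7 higher and 1 lower. Of all tested genes, 14.2% were called, 6.84% higher and 7.36% lower. The lower one was again *Rfx5*, at -0.67 (standard error 0.12, edgeR adjusted p = 0.0111). Of those that rose, 5 serve endosomal processing or class II turnover, a list whose 7 tested genes had a median of 0.80. They were *Ctsd* (log2 fold change 1.001, adjusted p = 0.00671 from edgeR), *March8* (0.80, adjusted p = 0.00678), *Ctsl* (1.15, adjusted p = 0.0269), *Cst3* (1.17, adjusted p = 0.0277) and *Lgmn* (0.66, adjusted p = 0.0417). Cathepsins D and L and legumain cut proteins in endosomes, *Cst3* encodes the cathepsin inhibitor cystatin C, and *March8* encodes a ubiquitin ligase that removes surface proteins. *Ctsb*, another cathepsin, was at 0.66 (adjusted p = 0.0589). *Nlrc5* rose by 1.65 (adjusted p = 0.0402) and *Irf2* by 0.56 (adjusted p = 0.0223). *Ctss*, the cathepsin best known for trimming the invariant chain in antigen-presenting cells, had 0 to 4 counts in every library and was not tested. The count of 8 was 1 without KD-Nap1l2-7day replicate 1 or 2, 5 without NC replicate 1 or 2, 21 without NC-7day replicate 1 and 22 without NC-7day replicate 2. Of 14 alternatives, the call held in 13 for *Ctsd* and for *March8*, 12 for *Rfx5*, 11 for *Ctsl* and for *Irf2*, 9 for *Cst3*, 8 for *Nlrc5* and 7 for *Lgmn*. *Ctsd* was the one called without KD-Nap1l2-7day replicate 1 and *March8* the one without replicate 2.

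The values of the class II set and of the interferon-related lists from day 0 to day 7 in the knockdown cells follow side by side. From KD-Nap1l2 to KD-Nap1l2-7day, all 17 interferon-stimulated genes had a positive log2 fold change (median 1.52) and so did all 8 class I genes (median 0.68), beside a median of -0.007 over all tested genes, although only *Nlrc5* was called. In the same contrast, *H2-Aa* was at -0.48 (standard error 0.649), *H2-DMa* at -0.02 (0.188), *H2-DMb1* at -0.55 (0.347) and *Cd74* at -1.70 (0.300), while *Ciita* was at 0.86 (0.710) and *H2-Ab1* at 1.35 (0.824), with at most 8 counts in a library. The set's values share the day-0 knockdown libraries that were in view when it was chosen, and the difference between the set and the lists was not tested.

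**Figure D3:**
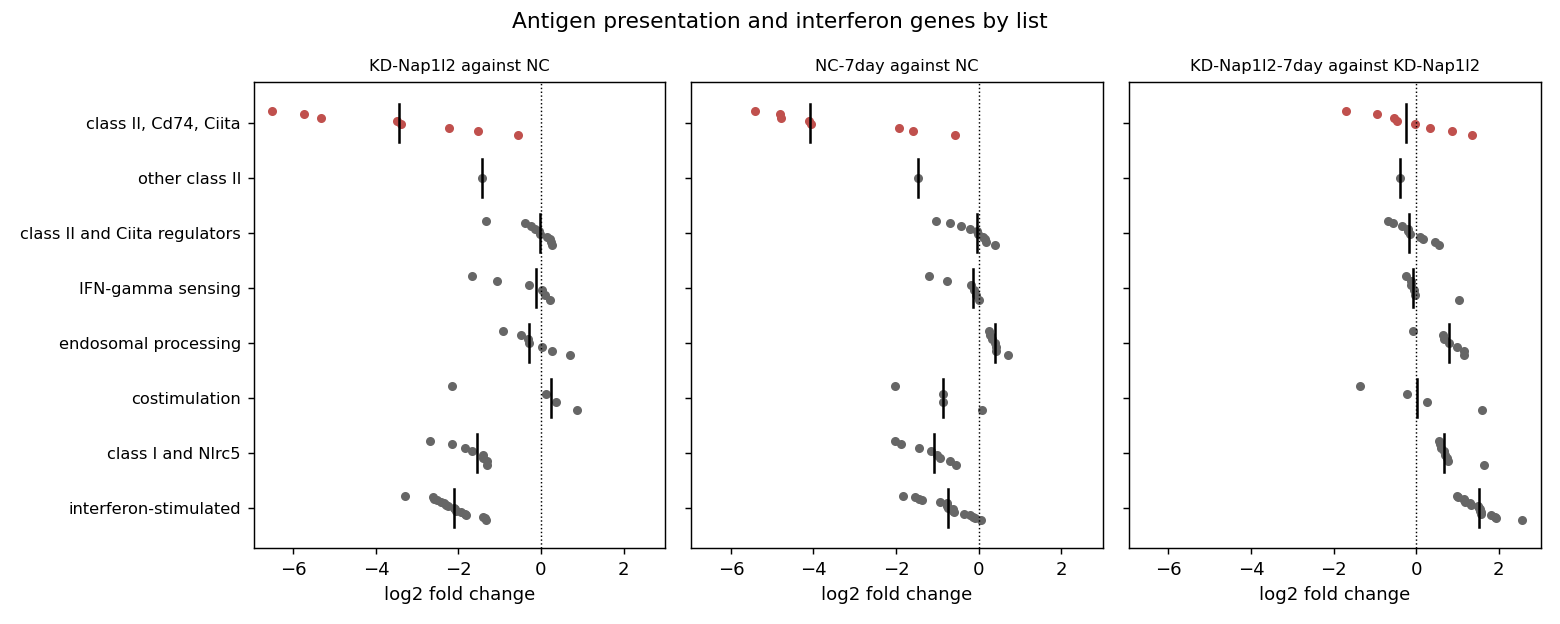
Fitted log2 fold changes of single genes (points) and list medians (lines) for the class II set and 7 pathway lists in 3 contrasts. In the first panel the interferon-stimulated and class I genes lie below 0 with the class II set, and in the third they lie above 0 while the class II set is spread around it. The members above 0 in the third panel, H2-Ab1, H2-Ea-ps and Ciita, have few counts. H2-Ea-ps averages 2 counts in KD-Nap1l2 and 2.5 in KD-Nap1l2-7day, too few to order the groups. H2-Aa, H2-Eb1, H2-DMa, H2-DMb1 and Cd74 lie below 0.

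The 2 libraries of a group also differed in these lists. In NC-7day, replicate 1 exceeded replicate 2 in all 17 interferon-stimulated genes, by a median of 3.80-fold, with *Ifit3* at 2037 and 308 CPM, and in all 8 class I genes, by a median of 2.08-fold. In KD-Nap1l2 it did so as well, by medians of 2.52-fold and 1.33-fold. In NC and in KD-Nap1l2-7day, replicate 1 was the higher one in 1 of 17 and in 0 of 8. Of the class II set, replicate 1 was lower in 8 of 8 genes in NC and in KD-Nap1l2-7day, and higher in 5 of 8 in KD-Nap1l2 and in 4 of 8 in NC-7day, where *H2-Ab1*, *H2-Eb1* and *H2-Ea-ps* had at most 10 counts in a library. This spread within groups enters every test above.

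Between knockdown and control at 7 days, 0 of the 53 pathway genes were called by edgeR. At an unadjusted p under 0.05 there were 3 of the 53, beside 7.85% of all tested genes. All 3 were higher in KD-Nap1l2-7day. The difference between the 2 knockdown contrasts was called in 0 of 53 by edgeR and in 9 by DESeq2. For DESeq2 no share of all tested genes is given here, so an excess cannot be read from the 9. At an unadjusted p under 0.05 there were 25 by edgeR (7.04% of all tested genes). All 25 had a knockdown difference that was more positive at 7 days. Without NC-7day replicate 1, edgeR called 4.

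Of the 8 genes, 6 lie in the H2 complex on chromosome 17, and their neighbours there were examined for the same pattern. Within 500 kb of the *H2-Aa* start, 38 further genes were tested. In KD-Nap1l2 against NC, 14 were higher and 24 lower, with a median of -0.10, and 0 were called. Among the 8 lowest values were those of *H2-DMb2* at -1.43, of the complement gene *C4b* at -1.95, and of genes of class I processing and presentation. The last included *Psmb8* at -2.69 (standard error 0.47, edgeR adjusted p = 0.0909), *Tap1* at -1.41, *Tap2* at -1.32 and *H2-K1* at -1.67. *Brd2*, a chromatin reader gene next to *H2-DMa*, was at -0.25, and *Notch4*, on the other side, at -0.84. In NC-7day against NC, 17 were higher and 21 lower. Of the 38, 3 were called, *H2-DMb2*, *Psmb8* and *Psmb9*, beside 8.21% of all tested genes, and an excess was not tested. Genes near 0 thus lay between *H2-K1* and the class II genes, as the plot of distance from *H2-Aa* shows.

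**Figure D4:**
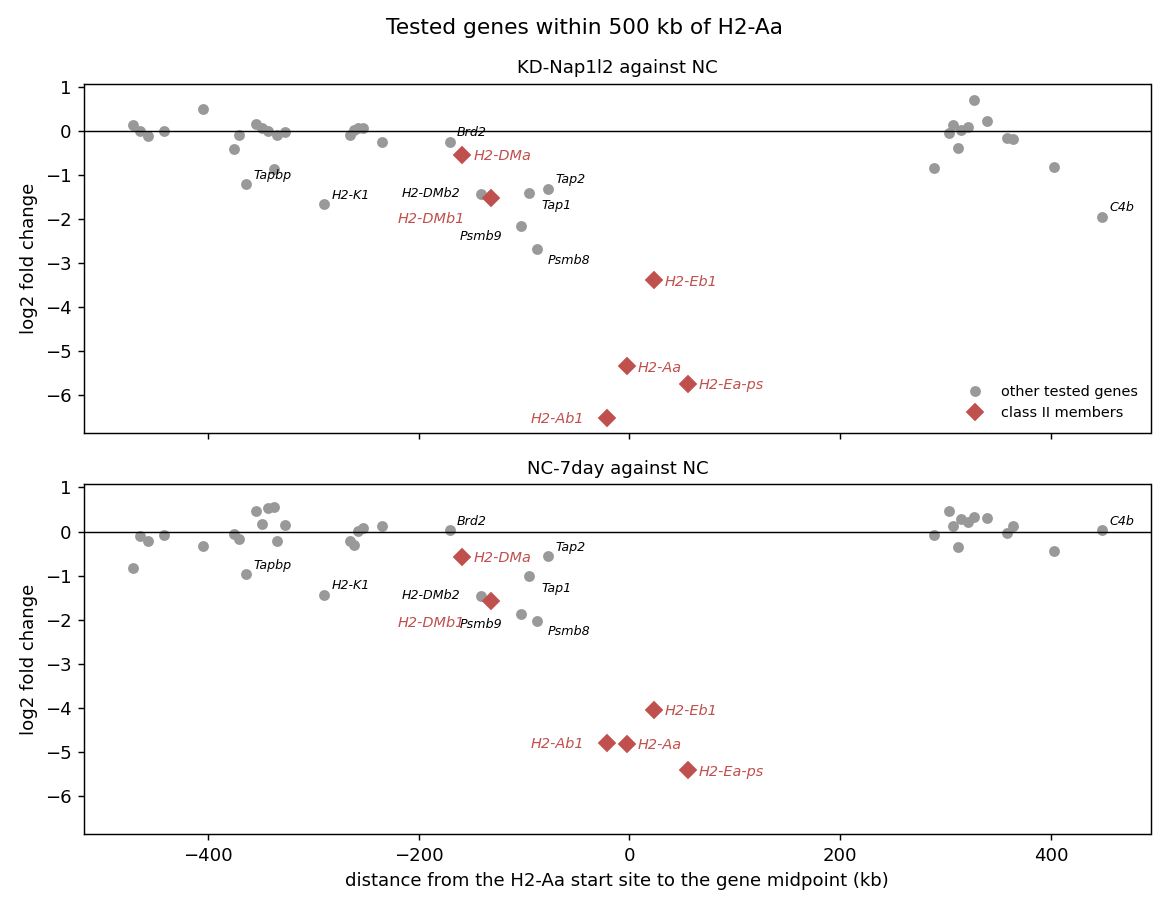
Fitted log2 fold change against distance in kb from the H2-Aa start to the midpoint of each tested gene, for KD-Nap1l2 against NC and NC-7day against NC. The 6 class II members (diamonds) lie at or below -0.55, and the other 38 tested genes (circles) lie between -2.69 and 0.71, most of them near 0.

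Across the 8 libraries, log2 CPM of the 8 genes moved together, with Pearson's r from 0.607 (*Cd74* with *Ciita*) to 0.968 (*H2-Aa* with *H2-Ea-ps*). These values describe 8 libraries in 4 groups, where a high NC group by itself gives a high r. Among genes outside all lists with a mean of at least 1 CPM, the 8 most like the average profile of the set were *C130026I21Rik* (r = 0.981), *Ergic3* (0.965), *LOC101055672* (0.964), *Angpt2* (0.959), *Gm40365* (0.956), *Tmem175* (0.955), *Batf2* (0.954) and *A530032D15Rik* (0.951). Listed genes outside the set reached similar values, with *H2-DMb2* (0.9625) and *Socs1* (0.9515) the highest of them. *Angpt2*, a ligand of the vascular receptor Tie2, had 28.2 and 19.5 CPM in NC and 2.10 to 3.67 in the other 6 libraries. *Batf2*, a transcription factor gene, had 4.59 and 8.66 in NC and 0.513 to 1.34 elsewhere. *Ergic3*, of the early secretory pathway, shared the shape at a small size, with 183 CPM in each NC library and 123 to 140 in the others.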

How the data were processed

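RNA-seq of 8 libraries in 4 groups was analysed, with groups taken from the labels. The authors deposited estimated counts per gene and per transcript, without normalization, and FPKM values, which the authors scaled to length and library size. The unit FPKM was inferred from the values. The submitters' processing notes name BWA, Bowtie2 and RSEM, without versions, and the build GRCm38.p6. Tables of the authors' own DESeq2 comparisons (fold changes and p-values) and columns of the authors' group means were not used.

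Estimated counts were rounded, scaled by TMM, filtered with filterByExpr (minimum count 10) and fitted over all 8 libraries with edgeR 4.0.16 in R 4.3.3. The quasi-likelihood test was used with Benjamini-Hochberg adjustment over 13470 genes, and adjusted p under 0.05 was a call. Standard errors were taken from the fold change and the F statistic of the test. Ratios are of summed counts over TMM-scaled library sizes, with 95% exact intervals. With 2 libraries against 2, an exact permutation test cannot go below p = 0.333, so none is given for single values. Libraries held 17420284 to 19427359 counts, and 41.1% of genes had a count that was not whole. No pair of libraries was alike, since at least 16384 genes differed in every pair.

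The genes of the set, the pathway lists and the markers were chosen with earlier results of these data known. Named pathway genes were those called, *Rfx5*, *Nlrc5*, *Irf1* and *Ctss*, and the 3 of each list with the highest mean FPKM. A listed gene that entered the tests and counts is not reported here. Genes most like the set were ranked by r of log2 CPM (prior count 2) with the mean standardized profile. *Ifng*, the markers named and the neighbours named in the H2 complex were chosen after their values were seen.

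The alternatives tried were RLE size factors, DESeq2 1.42.0, a replicate block, no filter, limma 3.58.1 on log2(FPKM + 1), only the 4 libraries compared, and leaving out each library. The tests were tried on simulated data first. Coordinates come from GENCODE vM21 and promoters from RefSeq, both on GRCm38, and were read with Python 3.11.15. Figures were drawn with matplotlib 3.10.9.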

Additional observations from a re-analysis of the deposited data

How the results depend on the processing

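At 7 days, 0 of the 8 genes were called between knockdown and control under any of the alternatives, with adjusted p-values from 0.531 (*H2-DMb1*) upwards, and the number of genes called overall was 0 but for 79 with DESeq2 and 0 to 1 when a library was left out. *H2-DMa*, at 0.001 on the log2 scale, changed sign to -0.005 without the filter and with the replicate block and to -0.009 with limma on log2(FPKM + 1), and ran from -0.138 to 0.122 when a library was left out. *Cd74* ran from -0.060 to 0.384 in the same way and was below 0 without KD-Nap1l2-7day replicate 2. Pathway genes called in KD-Nap1l2 against NC numbered 0, but 17 with DESeq2, 10 without the filter and 0 to 11 when a library was left out. In NC-7day against NC there were 7, but 12 with DESeq2, 11 without the filter, 3 with only the 4 libraries compared and 0 to 11 when a library was left out. In KD-Nap1l2-7day against KD-Nap1l2 there were 8, but 13 with DESeq2, 17 with only the 4 libraries compared and 1 to 22 when a library was left out. For the difference of the knockdown contrasts there were 0, but 9 with DESeq2 and 0 to 4 when a library was left out. The cause of these moves was not tested, and the DESeq2 counts of pathway genes have no share of all tested genes beside them. Where a library was left out, its group had 1 library, which is assumed to vary like the others. Limma on log2(FPKM + 1) gave smaller differences for genes of low level, such as -1.11 in place of -3.39 for *H2-Eb1* in KD-Nap1l2 against NC, because the pseudocount is near their level. The replicate numbers did not pair the samples, since deviations of same-numbered libraries had correlations of -0.061 to 0.104. With the replicate block, 0, 5 and 6 pathway genes were called in KD-Nap1l2 against NC, NC-7day against NC and KD-Nap1l2-7day against KD-Nap1l2, and 0 in both other contrasts. *H2-DMb2*, *Lgmn* (in both induction contrasts) and *Nlrc5* lost their call with it. *H2-Ab1*, *H2-Eb1* and *H2-Ea-ps*, at 1 to 10 counts outside NC, are limited by depth.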
